A study of Mus musculus with 9 samples.

Results

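Wnt proteins are secreted lipid-modified ligands that bind Frizzled receptors together with the co-receptors Lrp5 and Lrp6. Without them a cytoplasmic complex built on Axin and Apc marks beta-catenin, the product of Ctnnb1, for degradation; with them beta-catenin accumulates and joins the DNA-binding TCF/LEF factors in the nucleus. In macrophages Wnt ligands are known both as products that act on neighbouring cells and as signals that modulate inflammatory activation. The genes described here are the Wnt ligands, their receptors and antagonists and the core of the beta-catenin branch in the mouse. They were picked by symbol, and they and the gene lists below were chosen with earlier results of these data known. Gene symbols were matched to the Wnt, Fzd, Dkk, Sfrp and Lgr4 to Lgr6 families and to Lrp5, Lrp6, Axin1, Axin2, Tcf7, Tcf7l1, Tcf7l2, Lef1, Ctnnb1 and Apc, which gave 50 of the 43629 genes in the deposited tables.

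The 50 members are 19 Wnt ligands, 10 Frizzled receptors, 2 LRP co-receptors, 3 LGR receptors for R-spondins, 8 secreted antagonists of the Dkk and Sfrp families, 4 genes of beta-catenin and its scaffolds, and 4 TCF/LEF factors. They were read in RNA of RAW264.7 cells, a mouse macrophage-like cell line, in 9 libraries. The 3 LPS+NaBu libraries came from cells given NaBu, the sodium salt of butyrate and an inhibitor of histone deacetylases, before lipopolysaccharide (LPS), a bacterial wall component that activates macrophages; the 3 LPS libraries came from cells given LPS alone and the 3 control libraries from cells given neither. No group received NaBu alone, so an effect of NaBu without LPS cannot be told apart from one that needs it, and all 9 libraries come from 1 transformed line. The study calls the replicates biological, but no label says which cultures they came from, so a p-value here speaks only for how far these libraries differ, which may be technical.

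The libraries held 37.6 to 64.4 M recovered reads. Values are normalised counts, that is, reads per gene divided by 1 size factor per library, and 1 read was worth 0.688 to 1.41 normalised counts. The 9 macrophage markers in the tables were present in every library, but their sum lay between 216750 and 235180 normalised counts in LPS+NaBu, against 638100 to 677520 in LPS and 462980 to 480390 in control. Lyz2 was the largest part of that sum in each group. Emr1 averaged 5849 in LPS+NaBu, against 7881 in LPS and 3690 in control, while the other 8 were lower in LPS+NaBu than in control. Fibroblast markers summed to 272 to 296 normalised counts in LPS+NaBu, against 13.0 to 18.8 in LPS and 6.36 to 12.1 in control, and the sum was carried by Col1a1, Pdgfra, Pdgfrb and Thy1, which reached 10 normalised counts only in LPS+NaBu, while Lum had 0 reads in all 9 libraries. Epithelial markers summed to 11.2 to 22.7 in LPS+NaBu, against 2.01 to 2.82 in LPS and 3.18 to 6 in control, with Krt19 and Krt5 at 0. None of these 8 markers reached 10 normalised counts in any library. Endothelial markers summed to 1141 to 1245 in LPS+NaBu, against 962 to 1022 in LPS and 1873 to 2013 in control, with Cldn5 and Emcn at 0. That sum was carried by Vwf, while Pecam1 averaged 41.2 in LPS+NaBu, against 20.0 in LPS and 5.73 in control. B cell markers summed to 46.3 to 61.9 in LPS+NaBu, against 77.7 to 104.5 in LPS and 5.57 to 20.0 in control, with Ms4a1 at 0. The LPS sum was mostly Pax5, which averaged 86.3 there, against 5.92 in LPS+NaBu and none in control. Cd79a and Cd79b averaged 21.0 and 21.9 in LPS+NaBu, against 4.68 and 1.45 in LPS and 5.47 and 5.73 in control. The part of these shifts in the results below was not tested. In bulk RNA a change in the share of cells that express a gene cannot be told apart from a change in RNA per cell.

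Of the 50 members, 19 reached at least 10 normalised counts in at least 3 of the 9 libraries and were tested, while 31 did not. Among those 31, 10 had no read in any library: Wnt2, Wnt3a, Wnt5a, Wnt7a, Fzd6, Fzd10, Dkk1, Sfrp2, Sfrp4 and Axin2. A count of 0 in a library allows up to 3 read pairs, which is 7.18 normalised counts on average in LPS and 5.60 in control. Axin2, a scaffold that is itself a widely used readout of beta-catenin signalling, was thus not detected at this depth in any group. The 11 members with at least 10 normalised counts in all 9 libraries were Wnt2b, Wnt6, Fzd5, Fzd7, Lrp5, Lrp6, Lgr4, Ctnnb1, Axin1, Apc and Tcf7l2.

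The 3 comparisons share libraries, so their counts are not independent of one another. In LPS+NaBu against LPS, limma on log2(normalised count + 1) called 17 of the 19 tested members at an adjusted p under 0.05, 13 higher and 4 lower, where 78.1% of all 14808 genes tested were called, 40.2% higher and 37.8% lower. Of these higher calls 6 belong to Wnt3, Fzd2, Fzd4, Lgr6, Tcf7 and Tcf7l1, which reached 10 normalised counts only in LPS+NaBu and so had to differ. Wnt10b and Sfrp5 reached 10 in no LPS library and in 1 and 2 control libraries, so they too passed the filter only through LPS+NaBu. The adjusted p-values given below for all of these genes in LPS+NaBu carry this limit. Among the 11 members present in all 9 libraries, 5 were higher, 4 lower and 2 not called, so that 9 of 11 were called, near the share of all genes, with a median log2 change of -0.00013 against 0.02 over all genes. In LPS+NaBu against control 13 members were higher and 4 lower, where 76.1% of all genes were called, 40.9% higher and 35.1% lower; of the 11, 6 were higher and 4 lower. In LPS against control 3 of the 19 were higher and 6 lower, where 56.1% of all genes were called, 25.2% higher and 30.8% lower; of the 11, 3 were higher and 3 lower. Within several families the members moved in opposite directions, and they are described below by role. The plot of log2 changes shows all 19.

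**Figure D1:**
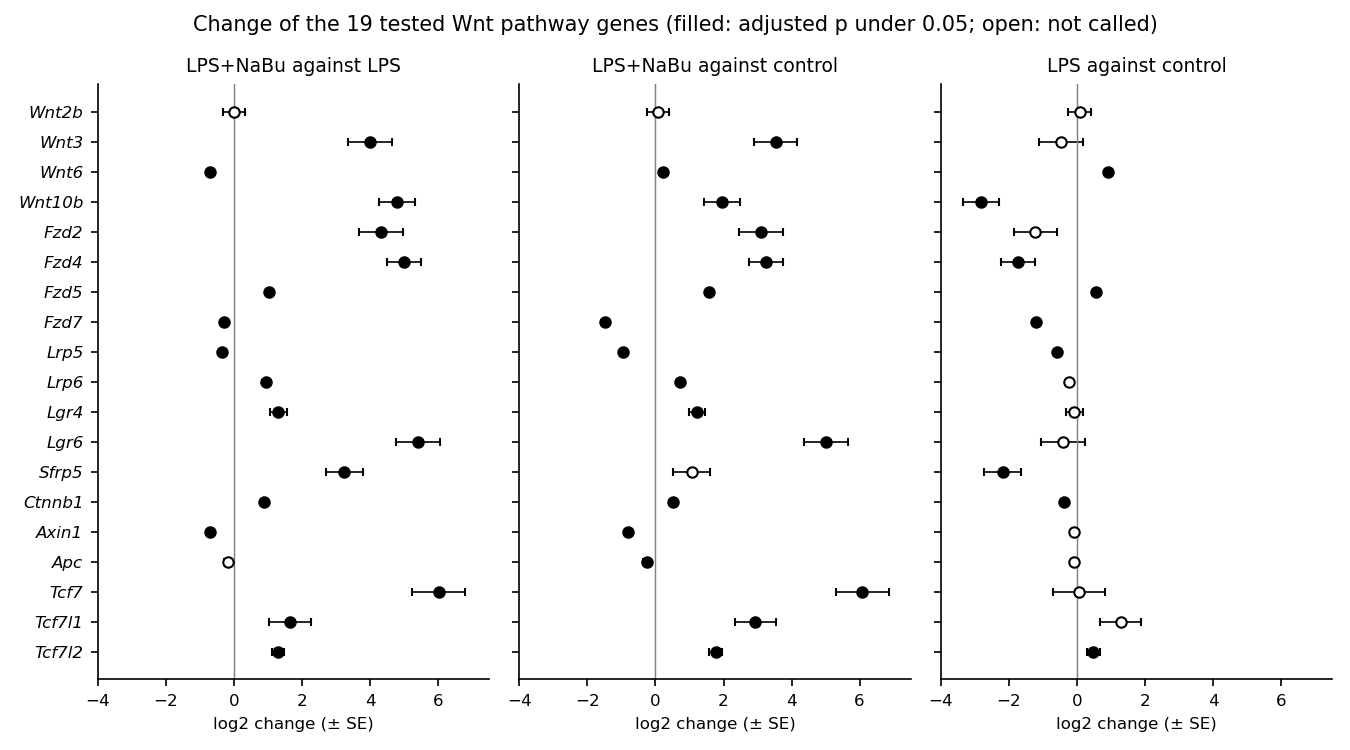
Change of the 19 tested genes on the log2(normalised count + 1) scale, with 1 panel per comparison and bars of ± 1 standard error. Filled points passed an adjusted p of 0.05 in limma over 14808 genes and open points did not; Tcf7 lies near 6 in both comparisons of LPS+NaBu and near 0 in LPS against control.

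Among the ligands, Wnt6 was the only 1 of the 19 Wnt genes with more than 100 normalised counts in any library. Wnt6 is known to be made by macrophages as well as by epithelia. It lies on chr1:74810922-74824975 (GRCm39, plus strand). Its normalised counts were 585, 533 and 511 in LPS+NaBu, against 839, 968 and 836 in LPS and 482, 450 and 460 in control, and no pair of groups overlapped. Wnt6 was thus higher in LPS than in control (log2 change 0.92 ± 0.09, adjusted p = 9.56e-07), and lower in LPS+NaBu than in LPS (log2 change -0.70 ± 0.09, adjusted p = 6.29e-06). The difference of LPS+NaBu from control was small (log2 change 0.23 ± 0.09, adjusted p = 0.0298) and its call was lost under 5 of 19 alternatives, with adjusted p of 0.123 without LPS+NaBu replicate 1, 0.0821 without control replicate 2 and 0.0676 without control replicate 3.

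Wnt10b, a ligand best known for promoting bone formation and restraining fat cell differentiation, went the other way. It had 52.9, 32.3 and 34.5 normalised counts in LPS+NaBu, against 2.01, 0 and 0 in LPS and 14.3, 6 and 9.05 in control. It was nearly lost in LPS relative to control (log2 change -2.83 ± 0.53, adjusted p = 0.000527) and stood above both other groups in LPS+NaBu. Counted in read pairs, it was 53.3-fold higher in LPS+NaBu than in LPS (exact 95% interval 9.27 to 2135, for counting error only; adjusted p = 2.24e-06 in limma) and 4.08-fold higher than in control (log2 change 1.96 ± 0.53, adjusted p = 0.00453). Wnt10b overlaps Wnt1 on the opposite strand (Wnt10b at chr15:98668593-98690045, minus; Wnt1 at chr15:98687738-98691718, plus). No source read here says whether strand was used in the counting, so reads of this pair may not be separable.

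Wnt3, a ligand of the beta-catenin branch, had 20.6, 14.5 and 10.9 normalised counts in LPS+NaBu, against none in the 3 LPS libraries and 1.59, 0 and 0 in control. It was at least 2.14-fold higher in LPS+NaBu than in LPS, taking 3 read pairs per LPS library as the floor (adjusted p = 7.72e-05). Against control the ratio was 25.9, with an exact 95% interval of 4.36 to 1078 (adjusted p = 0.000236). Wnt3 was therefore seen at a low level in LPS+NaBu and at or below its floor elsewhere.

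Wnt2b did not pass the test in any comparison. Its normalised counts were 34.4, 36.8 and 31.7 in LPS+NaBu, against 49.1, 41.1 and 19.8 in LPS and 25.4, 35.0 and 38.2 in control, with all groups overlapping. A pair of ligands just under the filter had more reads in LPS+NaBu: Wnt1 had 8.94, 15.6 and 10.9 normalised counts there, against 2.01, 0 and 0 in LPS and 1.59, 0 and 0 in control. Wnt10a, the neighbour of Wnt6 on chromosome 1, had 20.6, 20.1 and 9.07 in LPS+NaBu, against 2.01, 2.35 and 2.82 in LPS and none in control. The LPS+NaBu libraries did not overlap the others in either gene, though neither was tested under the filter. The other 13 ligands below the filter, 4 of them without any read, reached at most 10 normalised counts; Wnt5b had 7.56, 8.92 and 1.81 in LPS+NaBu, against 2.01, 0 and 0 in LPS and 6.36, 4 and 8.05 in control.

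Ligands need the secretion machinery. Of 3 genes listed for it, Porcn and Wls were tested. Wls, the carrier that takes lipid-modified Wnt proteins to the cell surface, had 567, 479.6 and 509 normalised counts in LPS+NaBu, against 2542, 2348 and 2473 in LPS and 2397, 2579 and 2489.5 in control. It was 4.73-fold lower in LPS+NaBu than in LPS (log2 change -2.24 ± 0.07, adjusted p = 4.99e-12), and LPS and control overlapped. Porcn, the enzyme that attaches the lipid, was higher in LPS+NaBu than in LPS (112.8 ± 28.7 against 52.3 ± 27.0 normalised counts, SD, n = 3 each; adjusted p = 0.00479), but the libraries overlapped and the call was not made after quantile normalization. Wls and Wnt6, the most abundant ligand, were thus both lower in LPS+NaBu than in LPS, and Wnt2b was not called. The low ligands Wnt3 and Wnt10b were higher, but they passed the filter only through LPS+NaBu, and Wnt1 and Wnt10a were not tested.

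Of the 10 Frizzled receptors, the 7-pass receptors that bind Wnt directly, Fzd5 and Fzd7 made up nearly all reads, and they changed in opposite directions. Fzd5 (chr1:64769717-64776934, minus strand) had 2646, 2622 and 2825 normalised counts in LPS+NaBu, against 1353, 1211 and 1425 in LPS and 883, 838 and 975 in control. It stepped up with LPS (log2 change 0.56 ± 0.07, adjusted p = 2.49e-05) and again with NaBu before LPS (log2 change 1.02 ± 0.07, adjusted p = 3.03e-08), with no overlap between any groups. LPS+NaBu was 3.002-fold above control (adjusted p = 3.83e-10).

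Fzd7 (chr1:59521269-59534685, plus strand) had 1344, 1352 and 1349 normalised counts in LPS+NaBu, against 1688, 1655 and 1589 in LPS and 3540, 3802 and 3957 in control. LPS was 2.29-fold below control (log2 change -1.19 ± 0.05, adjusted p = 6.07e-10) and LPS+NaBu was 2.79-fold below control (log2 change -1.48 ± 0.05, adjusted p = 2.93e-11). The further step between LPS+NaBu and LPS was small (log2 change -0.29 ± 0.05, adjusted p = 0.000275) and was not called when all libraries were scaled to the same sum (log2 change -0.01, adjusted p = 0.884). The difference of Fzd7 between LPS and control was thus larger than its further step in LPS+NaBu.

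Fzd4 and Fzd2 were low receptors read mainly in LPS+NaBu. Fzd4, the receptor for Norrin as well as for Wnt, had 23.4, 29.0 and 44.4 normalised counts in LPS+NaBu, against none in LPS and 3.18, 2 and 2.01 in control. It was at least 4.50-fold higher in LPS+NaBu than in LPS by the floor (adjusted p = 7.66e-07), and 12.8-fold higher than in control by read pairs (exact 95% interval 4.78 to 49.2; adjusted p = 5.20e-05). Its call in LPS against control (adjusted p = 0.00935) rests on values under the floor in both groups and was lost with a pseudocount of 4 (adjusted p = 0.0874).

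Fzd2 had 23.4, 20.1 and 14.5 normalised counts in LPS+NaBu, against none in LPS and 3.18, 0 and 2.01 in control. It was at least 2.69-fold higher in LPS+NaBu than in LPS (adjusted p = 3.49e-05), and 10.7-fold higher than in control by read pairs, with an exact 95% interval of 3.36 to 54.3 (adjusted p = 0.000633). LPS against control was not called (adjusted p = 0.125), except without control replicate 2 (adjusted p = 0.0212). The other 6 Frizzled genes never exceeded 2.23 normalised counts.

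The sequences just upstream of 4 receptor genes are shown because Fzd5 and Fzd7, which lie on 1 chromosome, changed in opposite directions, while Fzd4 and Lgr6 were read almost only in LPS+NaBu; they were chosen after the values were seen. They come from the RefSeq promoter table (build GRCm38.p6), each window matched exactly to GRCm39, and end before the more upstream of the RefSeq and GENCODE start sites. Capitals mark GC boxes (GGGCGG on either strand) and TCF/LEF matches (CTTTGAA or CTTTGAT or CTTTGTT or CTTTGTA on either strand); overlapping GC boxes run together. Coordinates are GRCm39, and each sequence reads 5′ to 3′ on the strand of its gene: Fzd5 chr1:64776935-64777159 minus, Fzd7 chr1:59521056-59521268 plus, Fzd4 chr7:89053324-89053562 plus and Lgr6 chr1:135033101-135033264 minus.
Fzd5: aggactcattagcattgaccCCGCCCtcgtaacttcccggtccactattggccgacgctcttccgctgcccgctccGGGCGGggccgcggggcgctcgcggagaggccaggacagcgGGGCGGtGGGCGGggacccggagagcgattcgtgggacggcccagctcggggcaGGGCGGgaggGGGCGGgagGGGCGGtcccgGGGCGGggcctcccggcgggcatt
Fzd7: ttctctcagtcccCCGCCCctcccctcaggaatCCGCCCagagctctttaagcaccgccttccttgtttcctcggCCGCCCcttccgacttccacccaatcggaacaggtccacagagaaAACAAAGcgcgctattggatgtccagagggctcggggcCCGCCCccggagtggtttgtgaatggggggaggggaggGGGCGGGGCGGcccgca
Fzd4: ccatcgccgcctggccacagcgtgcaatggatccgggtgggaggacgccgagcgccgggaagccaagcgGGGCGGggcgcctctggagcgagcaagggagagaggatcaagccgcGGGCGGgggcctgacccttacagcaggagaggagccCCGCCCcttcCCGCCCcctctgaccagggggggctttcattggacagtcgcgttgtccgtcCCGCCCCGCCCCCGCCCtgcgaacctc
Lgr6: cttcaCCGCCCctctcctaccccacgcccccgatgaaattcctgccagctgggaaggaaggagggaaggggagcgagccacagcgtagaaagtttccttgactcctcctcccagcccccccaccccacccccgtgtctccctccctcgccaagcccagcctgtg
The stretch before Fzd5 held 8 GC boxes, that before Fzd7 6, that before Fzd4 7 and that before Lgr6 1. Only Fzd7 of these 4 had a TCF/LEF match, AACAAAG on the plus strand, 130 bases before the RefSeq start site. Windows of 250 bases before the start site were found for 33 of the 50 members, with 48.4% to 87.6% G or C. A member was given 1 window, that of its most upstream start. The shares over the 32851 windows count every window without such a choice, so they are not like for like. A GC box was in 26 of these 33 windows and in 12 of the 14 of tested members, against 32.7% of the 32851 windows in the table. A TCF/LEF match was in 3 of 33 (Dkk1, Fzd7 and Wnt11), against 14.8% of all windows. The kappa B motif was in 1 of 33 windows, that of Wnt10b with 2 matches, against 3.90% of all windows, and AP-1 (TGANTCA) in 1 of 33, that of Wnt5b, against 6.75%. TATAAA was in 4 of 33 windows and in none of the 14 of tested members, against 12.4%. A match describes letters in a window and is neither a bound site nor a cause.

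Lrp5 and Lrp6, the single-pass co-receptors that Wnt brings together with Frizzled, also parted. Lrp5 (chr19:3634821-3736643) had 2571, 2492 and 2474 normalised counts in LPS+NaBu, against 3251, 3269 and 3171 in LPS and 4780, 4703 and 4995 in control. It was lower in LPS than in control (log2 change -0.58 ± 0.04, adjusted p = 1.15e-07) and lowest in LPS+NaBu (log2 change against control -0.94 ± 0.04, adjusted p = 3.34e-10). The step against LPS (log2 change -0.36 ± 0.04, adjusted p = 4.86e-06) was not called when libraries were scaled to the same sum (log2 change -0.09, adjusted p = 0.0756).

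Lrp6 (chr6:134423439-134544212) had 4937, 4843 and 5604 normalised counts in LPS+NaBu, against 3064, 2249 and 2741 in LPS and 3069, 3240 and 3039 in control. It was 1.91-fold higher in LPS+NaBu than in LPS (log2 change 0.94 ± 0.09, adjusted p = 7.01e-07) and 1.65-fold higher than in control (log2 change 0.72 ± 0.09, adjusted p = 1.13e-05). LPS and control overlapped and were not called apart (adjusted p = 0.0552), though 8 of 19 alternatives did call Lrp6 lower in LPS, among them the fits without LPS replicate 1 (adjusted p = 0.00526) and without LPS+NaBu replicate 3 (adjusted p = 0.0342).

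**Figure D2:**
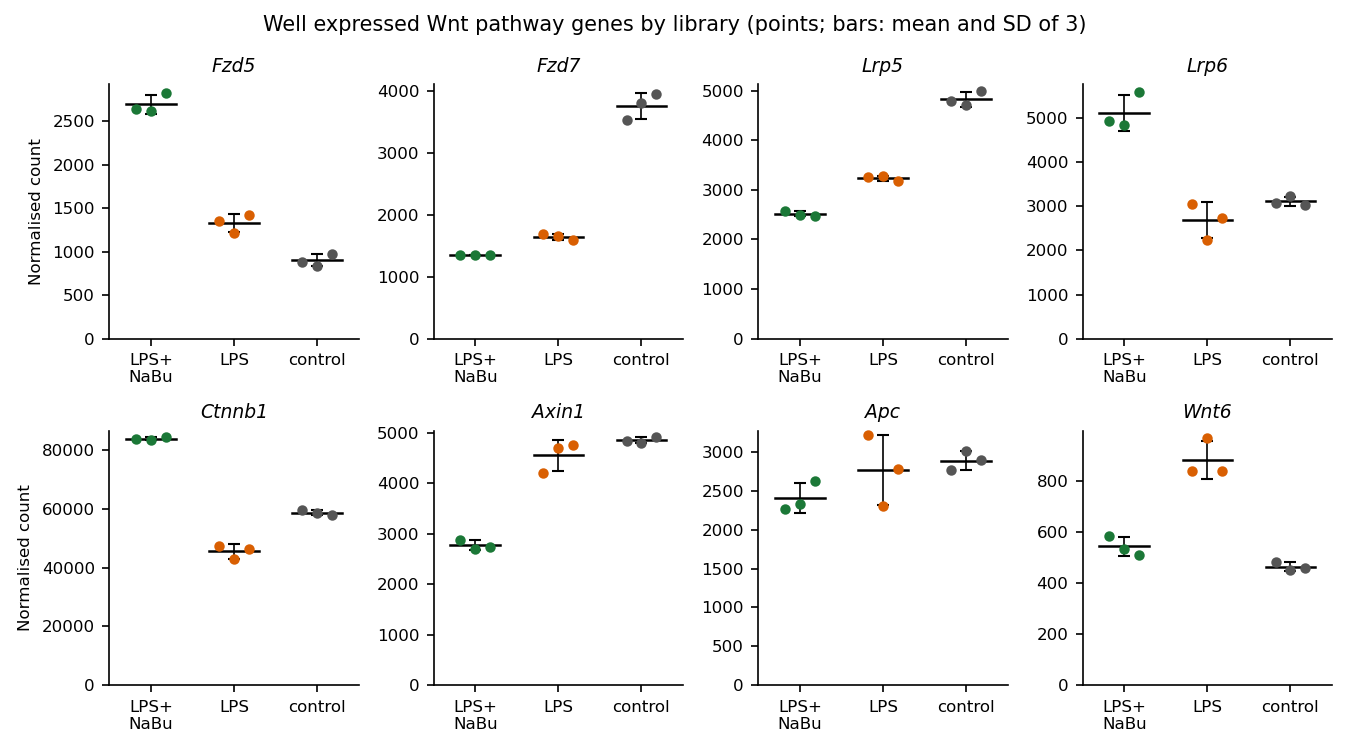
Normalised counts of the 8 well expressed genes in each library, with LPS+NaBu on the left, LPS in the middle and control on the right; points are libraries, and bars the mean and SD of 3. Fzd5, Lrp6 and Ctnnb1 have their highest 3 libraries in LPS+NaBu, and Fzd7, Lrp5 and Axin1 have theirs in control.

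The LGR receptors bind R-spondins, secreted proteins that keep Frizzled on the cell surface. Lgr4 (chr2:109747839-109844609) had 111, 112 and 127 normalised counts in LPS+NaBu, against 52.1, 44.6 and 43.8 in LPS and 69.97, 50.01 and 34.2 in control. It was 2.48-fold higher in LPS+NaBu than in LPS (log2 change 1.30 ± 0.24, adjusted p = 0.000299) and 2.27-fold higher than in control (log2 change 1.22 ± 0.24, adjusted p = 0.000521); the second call was lost by a small margin after quantile normalization (adjusted p = 0.0511). LPS and control overlapped.

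Lgr6 (chr1:134911039-135033100) had 52.9, 71.4 and 75.3 normalised counts in LPS+NaBu, against 0, 0 and 2.82 in LPS and 0, 2 and 2.01 in control. By read pairs it was 82.9-fold higher in LPS+NaBu than in LPS (exact 95% interval 14.6 to 3305; adjusted p = 4.48e-06) and 52.7-fold higher than in control (interval 14.3 to 440.8; adjusted p = 1.04e-05). Lgr5, the stem cell marker of the gut, stayed below the filter with 5.50, 6.69 and 8.16 in LPS+NaBu, against 0, 2.35 and 0 in LPS and none in control. The receptors of the R-spondin arm were thus all highest in LPS+NaBu, Lgr4 being the only one above 10 normalised counts elsewhere.

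Among R-spondins and the membrane ligases that LGR receptors oppose, 2 of 6 genes listed for this arm were tested, Rnf43 passing the filter only through LPS+NaBu. Rnf43, a ligase that removes Frizzled from the surface and a known beta-catenin target, had 58.4, 50.2 and 80.7 normalised counts in LPS+NaBu, against 4.01, 4.69 and 5.65 in LPS and 4.77, 8 and 16.1 in control (log2 change against LPS 3.45 ± 0.42, adjusted p = 5.38e-06; against control 2.71 ± 0.42, adjusted p = 5.66e-05). Its paralogue Znrf3 was higher in LPS+NaBu than in LPS and lower in LPS than in control, both by less than 2-fold. The 4 R-spondins never exceeded 5.44 normalised counts.

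Of the 8 secreted antagonists, only Sfrp5, a decoy that binds Wnt in place of Frizzled, was tested. It had 18.6, 24.5 and 20.9 normalised counts in LPS+NaBu, against 0, 2.35 and 2.82 in LPS and 11.1, 13.0 and 6.04 in control. It was lower in LPS than in control, 6.49-fold by read pairs (exact 95% interval 1.59 to 59.7; adjusted p = 0.00425), and 13.3-fold higher in LPS+NaBu than in LPS (interval 3.43 to 114.3; adjusted p = 0.000118). LPS+NaBu lay above control in every library without passing the test (log2 change 1.06 ± 0.55, adjusted p = 0.0949), while 4 of the 18 alternatives that could test it made that call, among them the fit without LPS replicate 1 (adjusted p = 0.0317). The other 7, Dkk1 to Dkk4, Sfrp1, Sfrp2 and Sfrp4, never exceeded 4.46 normalised counts.

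Of 11 further antagonists that the tables hold, 3 were tested (Kremen1, Kremen2 and Draxin), each called higher in LPS+NaBu in both comparisons, where 40.2% of all genes were called higher than in LPS and 40.9% higher than in control. Draxin reached 10 normalised counts only in LPS+NaBu, so its calls had to be higher there. Kremen1, a receptor that removes Lrp5 and Lrp6 from the surface together with Dkk, had 3193, 3222 and 3118 normalised counts in LPS+NaBu, against 428, 500.0 and 421 in LPS and 264, 263 and 308 in control. It was 7.07-fold higher in LPS+NaBu than in LPS (adjusted p = 6.26e-12) and 11.4-fold higher than in control (adjusted p = 1.02e-12). Kremen2 averaged 32.7 in LPS+NaBu, against 13.4 in LPS and 12.6 in control. Draxin averaged 15.2 in LPS+NaBu, against 3.84 in LPS and 0.671 in control. Kremen1 was also higher in LPS than in control (adjusted p = 1.77e-05). Draxin was called higher there too, on values under the floor in both groups, and 1 of the 3 was called in that comparison after quantile normalization or with edgeR. After quantile normalization 1 of the 3 was called in LPS+NaBu against LPS and 2 against control.

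Ctnnb1, which encodes beta-catenin, was by far the most abundant member. It had 83721, 83568 and 84509 normalised counts in LPS+NaBu, against 47355, 42803 and 46470 in LPS and 59675, 58647 and 57940 in control. It was lower in LPS than in control (log2 change -0.37 ± 0.05, adjusted p = 2.04e-05) and higher in LPS+NaBu than in LPS, 1.84-fold (log2 change 0.88 ± 0.05, adjusted p = 1.36e-09), and than in control, 1.43-fold (log2 change 0.51 ± 0.05, adjusted p = 3.81e-07). The 3 groups did not overlap. Ctnnb1 (chr9:120757422-120789579, plus strand) overlaps Ulk4 on the opposite strand.

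Axin1, the scaffold on which beta-catenin is phosphorylated, moved the other way. It had 2881, 2698 and 2732 normalised counts in LPS+NaBu, against 4194, 4687 and 4764 in LPS and 4832, 4798 and 4920 in control. LPS+NaBu was lower than LPS (log2 change -0.71 ± 0.05, adjusted p = 3.96e-08) and lower than control (log2 change -0.81 ± 0.05, adjusted p = 1.20e-08). LPS against control was not called (adjusted p = 0.151), but was called lower after scaling to the same sum and after quantile normalization. Apc, the scaffold lost in familial polyposis of humans, had 2271, 2336 and 2629 normalised counts in LPS+NaBu, against 3217, 2311 and 2779 in LPS and 2769, 3010 and 2897 in control. Its call in LPS+NaBu against control (log2 change -0.26 ± 0.10, adjusted p = 0.0259) was lost under 5 of 19 alternatives, with adjusted p between 0.0601 and 0.0810 without LPS+NaBu replicate 1 or 2 or control replicate 2 or 3. Apc was not called in LPS+NaBu against LPS (adjusted p = 0.0935) except under 3 alternatives, among them the fits without LPS replicate 2 (adjusted p = 0.00199) and without LPS+NaBu replicate 3 (adjusted p = 0.0349).

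Ratios of 2 genes within a library do not depend on how libraries are scaled. These pairs were chosen after the values were seen. Per kb of exon, Fzd5 over Fzd7 was 1.69 ± 0.07 in LPS+NaBu, against 0.685 ± 0.070 in LPS and 0.202 ± 0.014 in control (SD, n = 3 each), so the more abundant of these 2 receptors was Fzd5 in LPS+NaBu and Fzd7 in the other groups. Lrp6 over Lrp5 was 1.30 ± 0.12 in LPS+NaBu, against 0.530 ± 0.083 in LPS and 0.412 ± 0.026 in control. Ctnnb1 over Axin1 was 28.7 ± 1.04 in LPS+NaBu, against 9.53 ± 1.05 in LPS and 11.5 ± 0.29 in control. Tcf7 over Tcf7l2 was 2.69 ± 0.22 in LPS+NaBu, against 0.112 ± 0.098 in LPS and 0.151 ± 0.144 in control. Since the pairs were picked for moving apart, the ratios are a description and carry no test, and Tcf7 was read at 10 normalised counts or more only in LPS+NaBu. LPS and control overlapped for Lrp6 over Lrp5 and for Tcf7 over Tcf7l2.

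**Figure D3:**
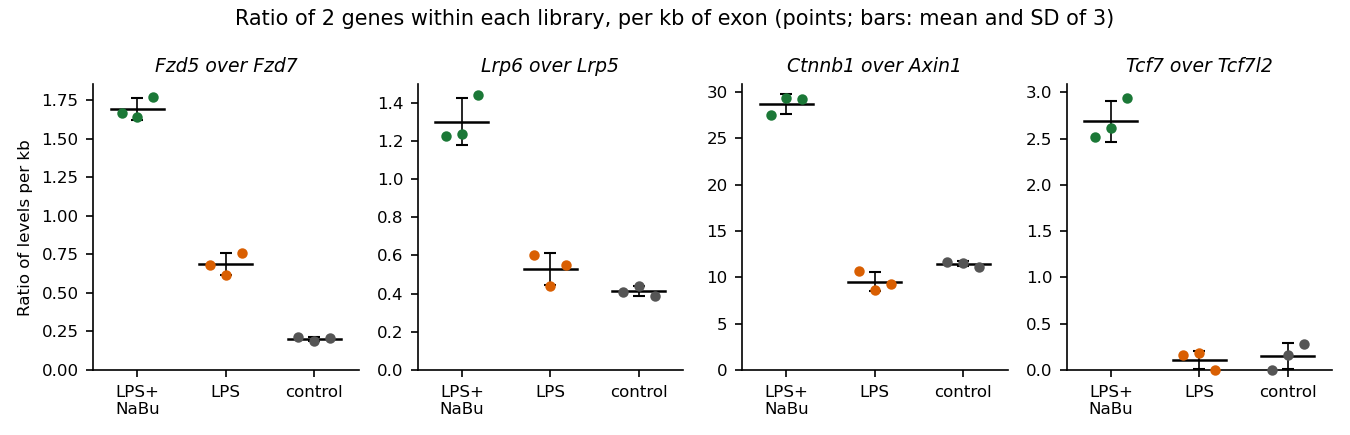
Ratio of 2 genes per kb of exon within each library, with LPS+NaBu on the left and control on the right; points are libraries and bars the mean and SD of 3. Fzd5 over Fzd7 exceeds 1 in the 3 LPS+NaBu libraries and lies below 1 in the other 6.

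Levels can be compared between genes only per length. Per kb of exon, LPS+NaBu ranked Ctnnb1 first at 10277 ± 61.9 normalised counts per kb, then Fzd5 at 389 ± 15.9, Axin1 at 358 ± 12.6 and Lrp6 at 332 ± 26.9, of which Axin1 and Lrp6 overlapped within their SD. Lrp5 followed at 256 ± 5.24, Fzd7 at 230 ± 0.70, Wnt6 at 193 ± 13.6, Apc at 134 ± 10.6 and Tcf7 at 57.9 ± 9.43. In LPS, Ctnnb1 stood at 5576 ± 296 and Axin1 at 588 ± 40.0, then Lrp5 at 329 ± 5.33 and Wnt6 at 313 ± 26.8, whose libraries overlapped, and Fzd7 at 280 ± 8.63, below Wnt6 in each library. In control, Ctnnb1 stood at 7194 ± 107, then Fzd7 at 642 ± 36.0 and Axin1 at 627 ± 8.15, which did not differ beyond their spread, then Lrp5 at 491 ± 15.4, Lrp6 at 202 ± 7.05, and Wnt6, Apc and Fzd5 between 130 and 165.

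The TCF/LEF factors are the DNA-binding partners of beta-catenin. Tcf7 encodes TCF1, best known from T cells and innate lymphoid cells. It had 204, 199 and 264 normalised counts in LPS+NaBu, against 6.02, 4.69 and 0 in LPS and 0, 4 and 6.04 in control. LPS and control held 10 reads each, under the floor on average. By read pairs Tcf7 was 56.7-fold higher in LPS+NaBu than in LPS (exact 95% interval 24.1 to 175.7; log2 change 6.02 ± 0.78, adjusted p = 9.86e-06) and 72.1-fold higher than in control (interval 30.6 to 223.4; log2 change 6.08 ± 0.78, adjusted p = 9.64e-06). Over the 16 alternatives that could test it the log2 change against LPS lay between 4.15 and 6.54. Tcf7 passed the filter only through LPS+NaBu, so these calls had to be higher. The alternatives that leave out an LPS+NaBu library could not test it. LPS and control could not be told apart at this level. T cell markers summed to 567 to 626 normalised counts in LPS+NaBu, against 4226 to 4356 in LPS and 1789 to 1993 in control, carried by Lck and Il7r, which were lower in LPS+NaBu than in both other groups. Cd4 had 24.1, 7.81 and 21.8 normalised counts in LPS+NaBu, against 9.02, 9.39 and 8.47 in LPS and 4.77, 4 and 13.1 in control, and was called higher than in control (adjusted p = 0.0472) with overlapping libraries. Cd3d reached at most 6.36 (control replicate 1) and Cd28 at most 5.50 (LPS+NaBu replicate 1). Cd3e, Cd3g, Cd8a, Cd8b1 and Trac never exceeded 2.75, and the part of all these markers in the level of Tcf7 was not tested. Tcf7 (chr11:52143107-52174619, minus strand) overlaps the non-coding gene A630014C17Rik on the opposite strand.

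Tcf7l2, a TCF factor of the gut epithelium and the liver, had 189, 177 and 210 normalised counts in LPS+NaBu, against 89.2, 61.0 and 86.1 in LPS and 62.0, 56.0 and 49.3 in control. It was 2.44-fold higher in LPS+NaBu than in LPS (log2 change 1.29 ± 0.19, adjusted p = 3.14e-05) and 3.44-fold higher than in control (log2 change 1.77 ± 0.19, adjusted p = 1.61e-06). LPS and control overlapped, and the call between them (log2 change 0.48 ± 0.19, adjusted p = 0.0462) was lost under 12 of 19 alternatives, 7 of which left out a single library (LPS 1 or 3, any LPS+NaBu library, control 2 or 3; adjusted p 0.0508 to 0.147).

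Tcf7l1, mostly a repressor of the family, had 10.3, 29.0 and 12.7 normalised counts in LPS+NaBu, against 4.01, 3.52 and 5.65 in LPS and 1.59, 0 and 3.02 in control. It was higher in LPS+NaBu than in control, 10.4-fold by read pairs (exact 95% interval 2.71 to 45.2; adjusted p = 0.000678). Its call against LPS (log2 change 1.65 ± 0.61, adjusted p = 0.0247) was lost without LPS replicate 1 (adjusted p = 0.0540), without LPS replicate 2 (adjusted p = 0.0599) and after quantile normalization (adjusted p = 0.352). LPS against control was not called (adjusted p = 0.0914) except without control replicate 3 (adjusted p = 0.0402). Lef1, the fourth factor, had 1.38, 2.23 and 0 in LPS+NaBu, against none in the other groups.

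**Figure D4:**
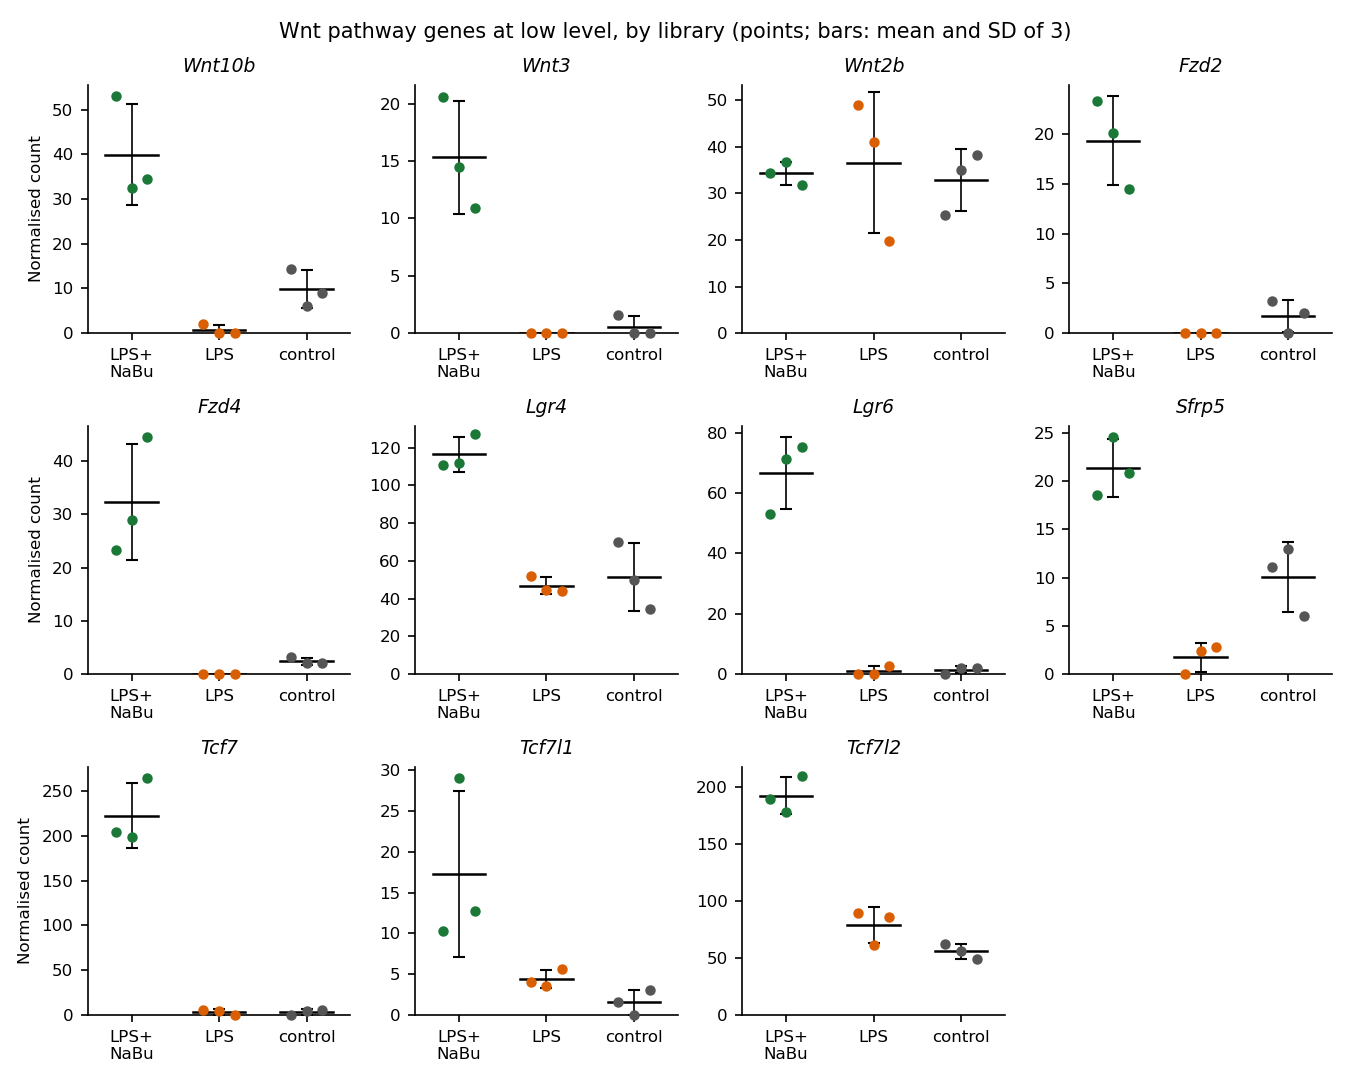
Normalised counts of the 11 tested genes at low level in each library, with LPS+NaBu on the left and control on the right; points are libraries and bars the mean and SD of 3. Wnt3, Fzd2 and Fzd4 have no read in the LPS libraries, Wnt2b overlaps in all groups, and Lgr6 and Tcf7 stand near 0 outside LPS+NaBu.

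Around these members, 26 genes of the destruction complex and the Dishevelled relay were listed and 21 tested. In LPS+NaBu against LPS 16 were higher and 3 lower, where 40.2% of all genes were higher and 37.8% lower, with a median log2 change of 0.35 against 0.02 over all genes; edgeR called 13 higher and 3 lower, with a median of 0.24 against -0.08. Against control 14 were higher and 5 lower, where 40.9% and 35.1% of all genes were, with a median of 0.39 against 0.09. Dact3, an inhibitor that binds Dishevelled, led them with 2918, 2775 and 2633 normalised counts in LPS+NaBu, against 25.1, 23.5 and 33.9 in LPS and 123, 153 and 153 in control. It was 101-fold higher in LPS+NaBu than in LPS (log2 change 6.62 ± 0.15, adjusted p = 4.18e-13) and 5.21-fold lower in LPS than in control (adjusted p = 2.23e-08). Apc2, a relative of Apc, averaged 174.7 in LPS+NaBu, against 21.7 in LPS and 34.0 in control, and Caprin2, which promotes Lrp6 phosphorylation, averaged 241 in LPS+NaBu, against 34.8 in LPS and 39.0 in control. LPS against control split evenly, 4 higher and 4 lower, where 25.2% of all genes were higher and 30.8% lower. When libraries were scaled to the same sum 1 was higher and 13 lower, where 2266 of 14787 genes were higher and 7078 lower. The median log2 change was then -0.26, against -0.27 over all genes.

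Of 19 tested nuclear partners of beta-catenin, 9 were higher and 8 lower in LPS+NaBu than in LPS, where 78.1% of all genes were called, with a median log2 change of -0.01 against 0.02 over all genes. Against control 8 were higher and 10 lower, where 76.1% of all genes were called, and 3 were higher and 8 lower in LPS than in control, where 56.1% were called. When libraries were scaled to the same sum these were 3 and 13, where 2266 of 14787 genes were higher and 7078 lower. Tle2, a Groucho co-repressor, averaged 228 in LPS+NaBu, against 10.7 in LPS and 20.3 in control. Ctnnbip1, which blocks the binding of beta-catenin to TCF, had 2176, 2164 and 1993 in LPS+NaBu, against 392, 512 and 415 in LPS and 774, 821 and 812 in control (log2 change against LPS 2.27 ± 0.09, adjusted p = 7.72e-11). Tle6 was 4.44-fold higher than in LPS, as was Hic1 at 4.45-fold, which passed the filter only through LPS+NaBu. The co-repressor Ctbp1 had 2442, 2427 and 2253 in LPS+NaBu, against 7963, 8100 and 8273 in LPS and 9210, 8698 and 8860 in control (log2 change against LPS -1.77 ± 0.05, adjusted p = 1.14e-12), and Ctbp2, Tle3 and Tbl1xr1 were each between 2.37-fold and 2.46-fold lower than in LPS. Repressors of the branch thus appeared on both sides.

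Of 12 tested genes of the branches that do not use beta-catenin, 10 were higher and 2 lower in LPS+NaBu, against LPS and against control alike in number, where 40.2% and 40.9% of all genes were called higher. Vangl2 and Prickle1 passed the filter only through LPS+NaBu and had to be higher there; of the 9 genes with at least 10 normalised counts in all 9 libraries, 7 were higher and 2 lower in both comparisons, with a median log2 change of 0.62 against LPS and 0.63 against control (0.02 and 0.09 over all genes). Of the 12 tested, 3 were higher and 4 lower in LPS than in control, where 25.2% of all genes were higher and 30.8% lower. When scaled to the same sum these were 2 and 7, where 2266 of 14787 genes were higher and 7078 lower. The planar polarity gene Vangl2 had 46.8, 85.9 and 60.8 normalised counts in LPS+NaBu, against none in LPS and 1.59, 2 and 2.01 in control. The pseudokinase receptor Ptk7 averaged 115.9 in LPS+NaBu, against 6.19 in LPS and 11.8 in control, Prickle1 52.0 against 4.94 in LPS and 5.35 in control, and Intu 379.9 against 87.4 in LPS and 101.8 in control. Daam1, a formin that acts below Dishevelled, rose with LPS already, averaging 5112 in LPS+NaBu, against 3763 in LPS and 1331 in control. Celsr1 fell with LPS and averaged 463 in LPS+NaBu, against 574 in LPS and 1178 in control.

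Of 30 textbook target genes of the pathway in the tables, 12 were tested and 10 had no read in any library; 5 of the listed targets are also members. In LPS against control 8 were higher and 2 lower, where 25.2% of all genes were higher and 30.8% lower, with a median log2 change of 0.999 against -0.05 over all genes. In LPS+NaBu against LPS 3 were higher and 8 lower, where 40.2% and 37.8% of all genes were, with a median of -1.24 against 0.02, and against control 5 were higher and 3 lower, where 40.9% and 35.1% were. Tcf7 and Rnf43 passed the filter only through LPS+NaBu and had to be higher there. Of the 10 targets with at least 10 normalised counts in all 9 libraries, 1 was higher and 8 lower than in LPS. Against control 3 of these 10 were higher and 3 lower, with a median log2 change of -0.05. Ccnd1, which encodes cyclin D1, had 1321, 1360 and 1361 normalised counts in LPS+NaBu, against 50782, 49432 and 51088 in LPS and 21614, 21280 and 21733 in control, 37.4-fold lower in LPS+NaBu than in LPS (adjusted p = 4.60e-17) and 16.0-fold lower than in control (adjusted p = 3.25e-16). Myc averaged 402 in LPS+NaBu, against 3904 in LPS and 139.6 in control, Fosl1 455 against 3683 in LPS and 1247 in control, and Id2 339 against 1537 in LPS and 364 in control. These 4 growth and early response genes answer many signals besides Wnt.

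The 3 targets higher in LPS+NaBu than in LPS were Znrf3 and, past the filter only through LPS+NaBu, Tcf7 and Rnf43, given above. Cd44 was 2.13-fold higher in LPS+NaBu and 2.02-fold higher in LPS than in control, and Birc5 was 4.78-fold lower in LPS+NaBu than in control. Jag1, a Notch ligand, averaged 1784 in LPS+NaBu, against 4848 in LPS and 1640 in control. Among the other listed targets Axin2, Sp5 and Dkk1 had 0 reads in all 9 libraries, and Nkd1, Notum, Lgr5 and Lef1 had reads but stayed under the filter.

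**Figure D5:**
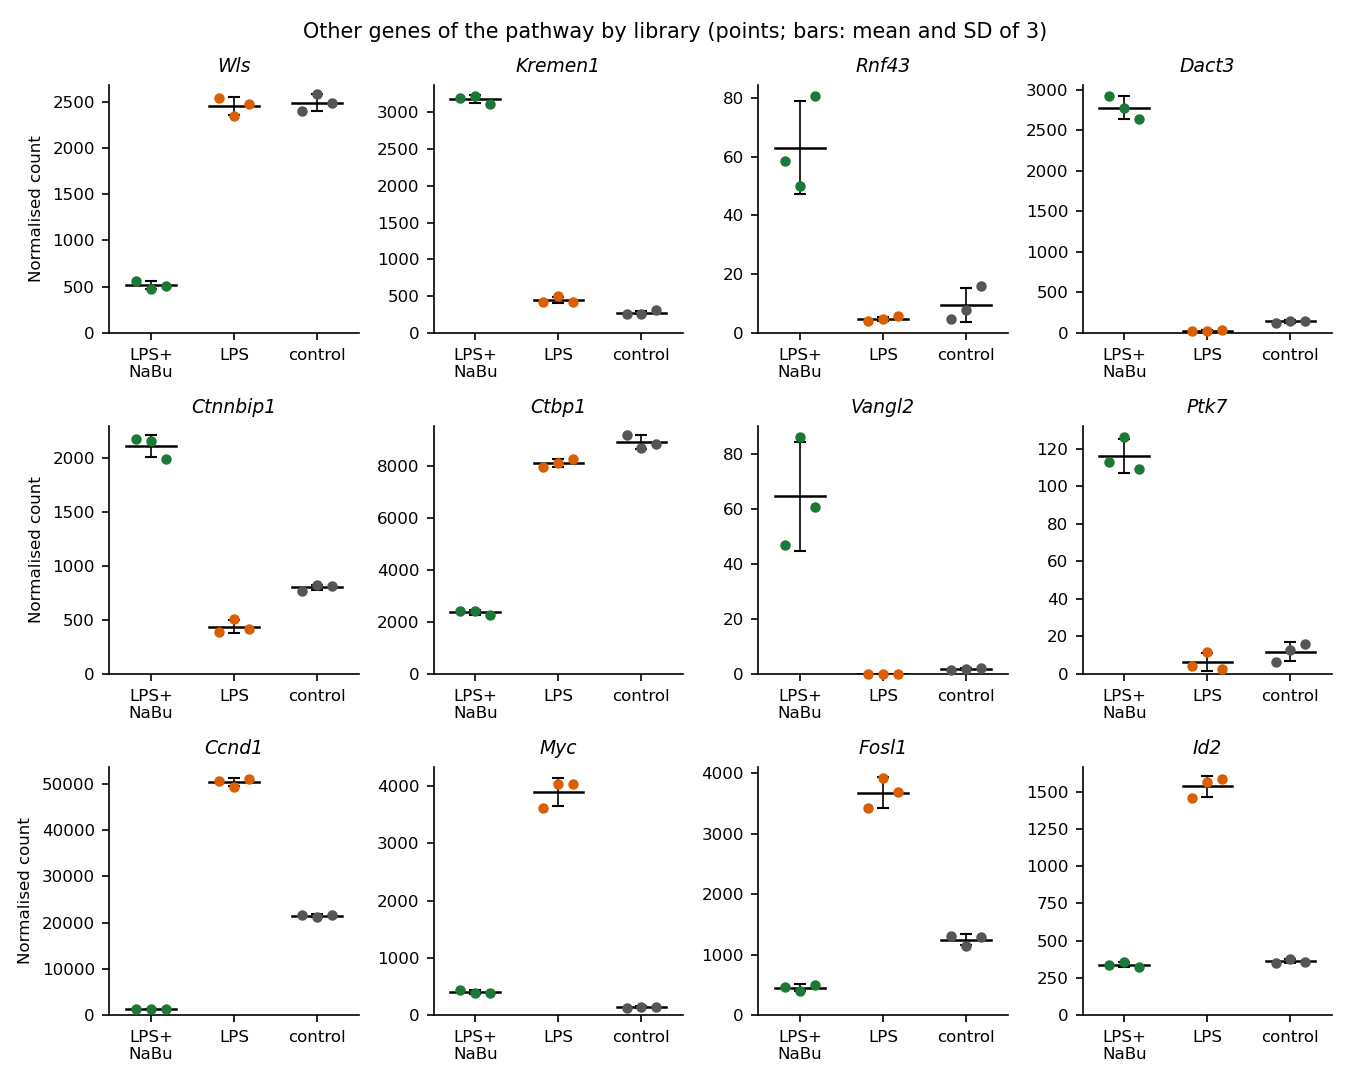
Normalised counts of 12 other pathway genes in each library, with LPS+NaBu on the left and control on the right; points are libraries and bars the mean and SD of 3. Kremen1, Rnf43, Dact3, Ctnnbip1, Vangl2 and Ptk7 have their highest 3 libraries in LPS+NaBu, while Ccnd1, Myc, Fosl1 and Id2 have theirs in LPS.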

How the data were processed

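RNA of 9 RAW264.7 libraries was prepared with a directional kit and sequenced in pairs, which the study's methods call mRNA sequencing. The study's methods name HISAT2 and featureCounts, while the submitters' processing notes name STAR 2.7.7a and DESeq2 on mm39; the strand setting was not found in them. The signal deposited by the authors as FPKM holds gene counts divided by 1 DESeq2 size factor per library: 100% of values were whole multiples of 1 read (tolerance 0.001). Genes with exactly 2 reads outnumbered those with 1 by 2.89 to 3.47 times, so mates appear to be counted separately; floors (3 read pairs) and exact 95% intervals were set on pairs and cover counting error only.

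Values were tested as log2(value + 1) with limma 3.58.1 (R 4.3.3), 1 mean per group over all 9 libraries, for 14808 genes with at least 10 in at least 3 libraries, with Benjamini-Hochberg adjustment over all of them; the fit was tested on simulated data. Lengths and positions are from GENCODE vM39 (GRCm39). The 19 alternatives include edgeR 4.0.16 and DESeq2 1.42.0 on the recovered reads. All tested members are named, those called with a log2 change of 1 or more in size library by library, and at most 4 such genes per direction, comparison and pathway list; Znrf3 was added after its values were seen. The members and lists were chosen with earlier results of these data known.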

Additional observations from a re-analysis of the deposited data

How the results depend on the processing

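Of the 43 calls made for members over the 3 comparisons, 35 held their direction under each of the 19 alternatives that could test them, 8 were lost under at least 1 and none reversed; of the 14 uncalled pairs 7 were called under at least 1. The 43 include the LPS+NaBu calls of Wnt3, Fzd2, Fzd4, Lgr6, Tcf7 and Tcf7l1, which had to be higher. Only 15 or 16 alternatives could test these genes, none of them a fit without an LPS+NaBu library. That such calls held is therefore no sign of robustness. With a filter of 50 normalised counts 12 members were tested, and 11 were called in LPS+NaBu against LPS (7 higher, against 13) and 8 were higher in LPS+NaBu against control. Of the 12111 genes tested there, 5020 were higher and 5220 lower than in LPS, and 5158 higher and 4905 lower than in control. When libraries were scaled to the same sum, 2 members were lower in LPS+NaBu than in LPS, against 4. Leaving out 1 library at a time gave 11 to 17 called and 7 to 13 higher in LPS+NaBu against LPS, and 9 to 18 called and 6 to 14 higher in LPS+NaBu against control. The lowest counts come from leaving out an LPS+NaBu library, after which 13 members could be tested, since those read only there no longer reach 3 libraries. Over all fits that left out 1 library, 14156 to 14749 genes were tested. Of these, 5171 to 5928 were higher and 5346 to 5570 lower in LPS+NaBu than in LPS. Against control 5245 to 6143 were higher and 4923 to 5290 lower. Scaling to the same sum moved the median log2 change of all genes by -0.23 in LPS against control (24.3% of calls higher, against 45.0%) and by 0.28 in LPS+NaBu against LPS (64.3% higher, against 51.5%), and edgeR's TMM moved the median of LPS+NaBu against LPS by -0.10.

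With a replicate block 8 members were called in LPS against control (2 higher and 6 lower), and 17 in each other comparison. Of all 14808 genes, that block called 3577 higher and 4400 lower in LPS than in control. It called 5904 higher and 5560 lower in LPS+NaBu than in LPS, and 5995 and 5129 against control. Libraries with the same number did not deviate together (correlations of deviations from -0.04 to 0.02), so the values show no pairing by number. Whether libraries with the same number shared a culture cannot be told from this. Depth limits the low members: Wnt1, Wnt3, Wnt10b, Fzd2, Fzd4, Lgr6, Sfrp5, Tcf7 and Tcf7l1 rest on few read pairs in at least 1 group, and their folds are bounds or wide intervals. Without a filter 40 members were tested, and 21 and 20 were called in LPS+NaBu against LPS and against control. Of the 24200 genes tested there, 6890 were higher and 5659 lower than in LPS, and 6880 higher and 5198 lower than in control.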
